A study of Oryza sativa with 8 samples.

Results

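Rice roots were measured at 55801 loci in 4 libraries of a group pair named D4 and 4 of a pair named D6. From D4 to D6, 91 loci rose at least 3-fold to a set level. In 53 of these the D6 levels were similar in control and carbon dot roots, as the selection asked, and these 53 are described here. A locus was taken where its lowest D6 value was at least 5 FPKM, that value was at least 3 times its highest D4 value, and the D6 means of the carbon dot and control libraries differed by less than 1.5-fold. FPKM is the fragment count of a gene scaled to its length and to the library total, so levels can be compared between genes per length. The 53 loci were thus selected on their measured FPKM in all 8 libraries, so the rise from D4 to D6 and the similarity at D6 are given as descriptions and were not tested.

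The libraries came from roots of Oryza sativa and fall into 4 groups of 2 replicates. D4_CK and D6_CK carry the treatment label normal and serve as controls, and D4_100X and D6_100X carry a label that reads 100X CD, for carbon dots, which are nanometre-sized carbon particles used for seed priming in this series. The labels define neither D4, D6 nor 100X, which are used as names only, and they give no cultivar or plant age. They do not say whether replicates came from separate plants, so p-values measure the spread between these libraries, which may be technical. RNA came from whole roots, in which fewer cells of a type and less RNA per cell cannot be told apart.

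Seed priming treats seeds before sowing. A young root adds tissue quickly, with cells leaving the tip to elongate and differentiate while epidermis, cortex and vessels take up nutrients and ions. Ion transporters and enzymes that oxidise membrane lipids are among the gene products that change their level as root cells mature or as their surroundings change. The gene HKT1 encodes a sodium transporter of the root plasma membrane, known in rice for sodium uptake when potassium is scarce. Lipoxygenases add oxygen to polyunsaturated fatty acids, and the products include precursors of signalling and defence compounds.

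The reads inferred from the FPKM steps summed to 22.6 M over all loci in each of the 8 libraries, and the totals were nearly identical. No source read here says whether the libraries were brought to an equal size before counting, so the inferred reads may not be all the reads sequenced. Between 28619 and 30252 loci were above 0 in each library. A single read on a kilobase of gene amounts to 0.0437 FPKM. The 5 listed genes of green shoots reached at most 1.98 FPKM, and 0 of them passed the expression filter, which asked for 1 FPKM or more in 2 or more libraries. The single listed root locus, whose recalled name could not be matched to the reference, lay between 981 and 4119 FPKM. Its means were 3221 FPKM in D4 controls and 3440 with carbon dots, and 1894 and 1076 FPKM at D6. Every D6 library lay below every D4 library, as in 20.7% of all tested loci.

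The 53 loci covered a wide range of levels. Their mean over the D4 libraries ran from 0.373 to 31.6 FPKM with a median of 2.295, and their mean over the D6 libraries from 6.49 to 144 FPKM with a median of 17.0. At D6, 42 of them averaged at least 10 FPKM, 25 at least 20, 11 at least 50 and 5 at least 100. Most were weak but detected at D4, since 32 of 53 had a highest D4 value under 5 FPKM and 1 a highest D4 value under 1 FPKM. All 53 passed the expression filter, 49 of them on the D4 libraries alone.

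**Figure D1:**
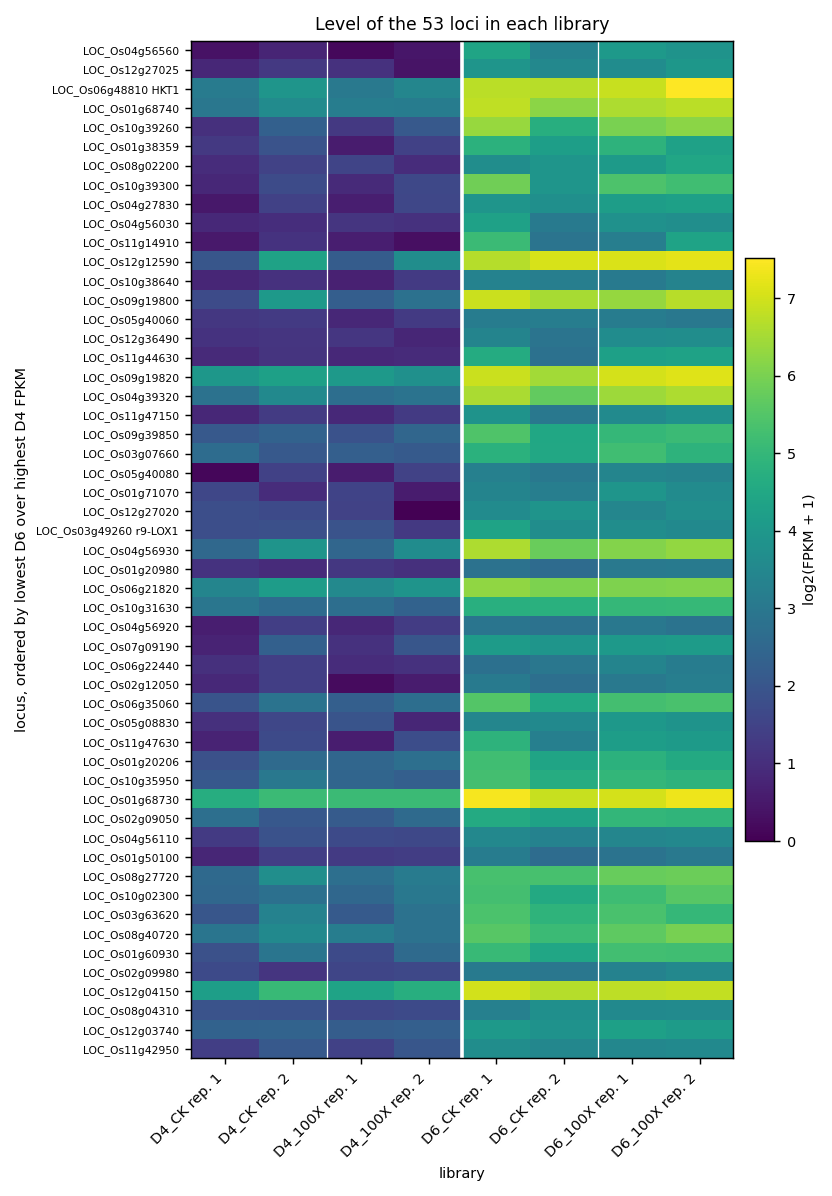
Level of each of the 53 loci in each of the 8 libraries, as log2(FPKM + 1) in colour, with loci ordered by the ratio of the lowest D6 to the highest D4 value. The step from the D4 to the D6 columns is the selection rule, while the differences between replicate columns of one group are not part of it.

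The ratio of the lowest D6 to the highest D4 value had a median of 3.90 and reached 12.6. It was under 4 in 30 loci, at least 5 in 16 and at least 6 in 9, so most of the set lies near the threshold. The lowest ratios inside the threshold were 3.08, 3.08 and 3.09, and the highest ratios outside it, among loci meeting the other terms, were 2.97, 2.96 and 2.94. For the level term the values next to the threshold were 5.13, 5.26 and 5.67 FPKM inside and 4.996, 4.94 and 4.57 FPKM outside. For the difference at D6 they were 1.49-fold, 1.45-fold and 1.45-fold inside and 1.52-fold, 1.53-fold and 1.56-fold outside. Without the threshold on the ratio, a lowest D6 value above the highest D4 value was found in 16.6% of the 22794 loci that passed the expression filter.

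Neither the deposited table nor the reference gene table pairs the locus identifiers with names. Names were therefore recalled from published identifiers and kept where the reference held the symbol on the same chromosome near the place that the identifier implies, an indirect match. Of 100 loci in lists covering ion, nutrient and water transport, dehydration, fermentation, phytoalexins, defence and cellulose, 79 had such a match, and 1 of the 100, HKT1, was a member. A member named r9-LOX1 was recalled after its values had been seen. The other 51 members are given by identifier or by count, and nothing is said of what they encode.

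HKT1 (LOC_Os06g48810, chromosome 6) was among the highest members at D6. Its FPKM was 7.74 and 14.2 in the D4 controls, 7.25 and 9.998 in the D4 carbon dot libraries, 105 and 105 in the D6 controls and 118 and 182 in the D6 carbon dot libraries. Every D6 library stood well above every D4 library, and at D6 both carbon dot libraries stood above both controls. The lowest D6 value was 7.38 times the highest D4 value, and the fold of the means was 9.57 in controls and 17.4 with carbon dots. Between 312 and 610 reads at D4 and 4502 and 7849 reads at D6 lay behind these values. The D6 means, 105 ± 0.317 FPKM in controls and 150 ± 45.6 FPKM with carbon dots (SD, n = 2), differed by 1.43-fold, close to the threshold for the D6 difference.

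The other HKT genes did not share this pattern. HKT9 (LOC_Os06g48800), the neighbouring locus and a close relative of HKT1, was listed at 0 in all 8 libraries, as was HKT3. How reads were divided between related copies is not given in the sources used here. HKT8, HKT6 and HKT4 stayed under 0.9 FPKM in every library. HKT7 lay between 0.135 and 0.347 FPKM at D4 and between 0.597 and 1.66 FPKM at D6, with every D6 library above every D4 library but far under the level term. Of the 7 HKT loci examined, HKT1 was the one member, and the family list was drawn up after the values of HKT1 had been seen.

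The second named member, r9-LOX1 (LOC_Os03g49260, chromosome 3), encodes a rice 9-lipoxygenase. Its FPKM was 2.46 and 2.55 in the D4 controls, 2.81 and 1.36 in the D4 carbon dot libraries, 19.8 and 11.8 in the D6 controls and 11.9 and 10.95 in the D6 carbon dot libraries. The 4 D6 libraries lay apart from the 4 D4 libraries, and 1 D6 control library stood above the other 3 D6 libraries, which were close together. The fold of the D6 over the D4 means was 6.29 in controls and 5.47 with carbon dots.

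Lipoxygenases recalled alongside it, after its values had been seen, took mixed courses. LOX4 (LOC_Os03g49350), close to r9-LOX1 on chromosome 3, had 30.4 to 65.8 FPKM at D4 and 23.1 to 45.4 at D6. LOX5 (LOC_Os03g49380), next to LOX4, had 52.9 to 78.0 FPKM at D4 and 42.0 to 52.1 at D6, so the D6 range lay under the D4 range. LOX1.1 had 185 to 502 FPKM at D4 and 132 to 183 at D6, again without overlap and in the opposite direction to r9-LOX1. LOX2 stayed between 10.5 and 13.3 FPKM in all libraries. LOX9 rose like r9-LOX1 and reached 4.58 times its highest D4 value in its lowest D6 library, but with at most 3.49 FPKM it stayed below the level term. LOX8 also had every D6 library above every D4 library, by a narrow margin of 0.404 against 0.390 FPKM, and was at most 1.86 FPKM.

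The largest ratio belonged to LOC_Os04g56560, with a lowest D6 value 12.6 times its highest D4 value. Its FPKM was 0.277 and 0.725 in the D4 controls, 0.128 and 0.362 in the D4 carbon dot libraries, 20.2 and 9.17 in the D6 controls and 15.4 and 13.5 in the D6 carbon dot libraries. This locus went from a low but detected level to a moderate one, on 6 to 34 reads per D4 library and 430 to 947 per D6 library. The fold of the means was 29.3 in controls and 59.0 with carbon dots, but the D6 means, 14.7 ± 7.80 and 14.5 ± 1.33 FPKM (SD, n = 2), differed by far less than the spread between the control replicates.

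The highest mean at D6 belonged to LOC_Os01g68730. Its FPKM was 24.7 and 33.8 in the D4 controls, 34.2 and 33.9 in the D4 carbon dot libraries, 172 and 117 in the D6 controls and 131 and 159 in the D6 carbon dot libraries. The D6 means were 144 ± 38.7 FPKM in controls and 145 ± 19.8 FPKM with carbon dots (SD, n = 2), and the carbon dot values lay between those of the 2 controls. Unlike LOC_Os04g56560 this locus was already well expressed at D4, and its folds of 4.93 in controls and 4.25 with carbon dots were among the smaller ones. The next locus in the table, LOC_Os01g68740, was also a member, with 6.89 to 11.3 FPKM at D4 and 73.7 to 111 FPKM at D6.

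Besides HKT1 and LOC_Os01g68730, 3 members averaged at least 100 FPKM at D6, and these were picked out after their values had been seen. LOC_Os12g12590 had 3.06 and 19.3 FPKM in the D4 controls, 3.56 and 11.8 in the D4 carbon dot libraries, 102 and 132 in the D6 controls and 136 and 148 in the D6 carbon dot libraries. Its D4 values fell into a low and a higher level in each treatment, with replicate 2 above replicate 1 both times. LOC_Os09g19820 had 14.9 and 18.5 FPKM in the D4 controls, 15.8 and 12.7 in the D4 carbon dot libraries, 120 and 88.1 in the D6 controls and 130 and 141 in the D6 carbon dot libraries. In this locus the D4 replicates were close and both D6 carbon dot libraries stood above both controls. LOC_Os12g04150 ran from 17.6 to 32.8 FPKM at D4 and from 101 to 129 FPKM at D6, with the carbon dot values inside the range of the controls at D6.

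**Figure D2:**
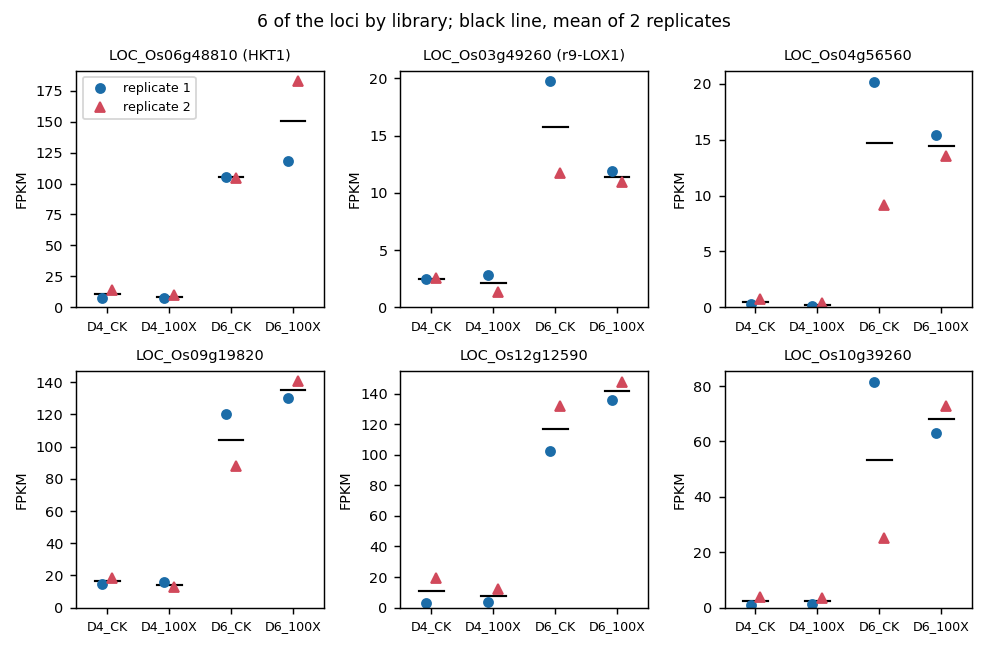
FPKM of 6 of the loci in each library, with replicate 1 as a circle, replicate 2 as a triangle and a black line at the mean of the 2 replicates in each group. LOC_Os04g56560 and LOC_Os10g39260 show a D6 control replicate 2 far below replicate 1, while HKT1 has control replicates that nearly coincide.

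Across the 53 loci the fold of the D6 over the D4 mean ran from 3.37 to 29.3 in controls, with a median of 6.29, and from 4.25 to 59.0 with carbon dots, with a median of 8.49. On the log2(FPKM + 1) scale, which understates the change of low genes, the median rise was 2.36 in controls and 2.72 with carbon dots. The same quantities over all 22794 loci that passed the filter had medians of -0.048 and -0.041. A rise of at least 10-fold was seen in 13 loci in controls and in 22 with carbon dots, and all 13 were among the 22. The 2 folds were within 1.5 times of each other in 34 loci, and the fold was larger with carbon dots in 44 loci and larger in controls in 9. These counts were not taken over all tested loci, so they are not set apart here as a trait of the members. The control folds also carry the spread between control replicates, as D4 control replicate 2 was highest of D4 in 31 members and D6 control replicate 2 lowest of D6 in 40. These folds join the D4 and the D6 difference between treatments, both of which are set out in what follows.

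**Figure D3:**
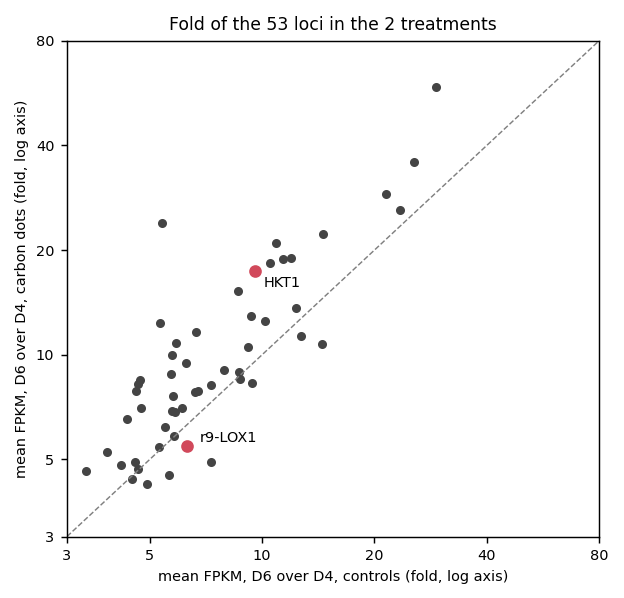
Fold of the mean D6 over the mean D4 FPKM of each of the 53 loci, in controls on the horizontal and with carbon dots on the vertical log axis, with a dashed line where both are equal. Of the points, 44 lie above the line and 9 below it, a split that was not taken over all tested loci. The highest point is LOC_Os04g56560, at 29.3-fold in controls and 59.0-fold with carbon dots.

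The D6 levels of the 2 treatments were held within 1.5-fold of each other by the rule, yet they were not evenly placed inside that range. The carbon dot mean was above the control mean in 38 of 53 loci, where 46.9% of all tested loci had it above. The ratio of the means ran from 0.688 to 1.49, with a median of 1.09. Both carbon dot libraries stood above both controls in 19 loci and below both in none, against 26.8% and 30.5% of all tested loci.

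Loci left out by the D6 term leaned the same way. In all, 91 loci met the level and ratio terms, and the 38 of these that differed by 1.5-fold or more at D6 were all higher with carbon dots and none lower. Their ratios ran from 1.52 to 7.50 with a median of 2.03, and 19 reached 2-fold. In 37 both carbon dot libraries stood above both controls at D6, against 26.8% of all tested loci, where 30.5% had both below. These loci were set apart by their D6 difference, so its size and the lack of overlap are given as a description. Their median D4 level, 2.12 FPKM, was close to the 2.295 FPKM of the members, and so was their median D6 control mean, 17.3 against 18.4 FPKM, while their median D6 carbon dot mean was 45.2 FPKM against 18.4.

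The spread between the D6 control libraries bore on the small differences inside the set. Replicate 2 of the D6 controls held the lowest of the 4 D6 values in 40 of 53 members, against 23.1% of all tested loci, and replicate 1 held the highest in 23 members, against 23.6%. Replicate 1 was at least 1.5 times replicate 2 in 20 members, against 5.52% of all tested loci. Set against control replicate 1 alone, the carbon dot mean was higher in 23 of 53 members, with a median ratio of 0.958. Set against control replicate 2 alone, it was higher in 49 of 53 members, with a median ratio of 1.36. The direction of the D6 difference among the members therefore depended on which D6 control library was used. Which of the 2 control libraries was the unusual one cannot be told from 2 replicates. The 38 loci left out by the D6 term were all higher with carbon dots against control replicate 1 alone as well. With the rule applied without control replicate 2, 166 loci rather than 91 met the level and ratio terms, and 109 of the 166 were higher with carbon dots at D6. Of this larger set, those that differed by 1.5-fold or more at D6 were 47 higher and 8 lower with carbon dots.

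The rule did not compare the treatments at D4, and the carbon dot effect there was tested. The rule did cap the highest of the 4 D4 values, so a large D4 difference could keep a locus out of the set. The result for the members is read with that limit. With limma on log2(FPKM + 1) over all 8 libraries, with 4 residual degrees of freedom, 0 of 22794 loci (0%) had a Benjamini-Hochberg adjusted p under 0.05, and 432 (1.90%) had an unadjusted p under 0.05. Of the 53 members 0 passed the adjusted threshold and 1 had an unadjusted p under 0.05, a share like that of all tested loci. On simulated data, 200 loci drawn from all 22794 were changed at D4. The same fit found 47% of changes of 1 and 82% of changes of 2 on the log2(FPKM + 1) scale. A change of 1 is close to 2-fold at high FPKM and larger at low FPKM. The D4 replicates of the members differed more than those of all tested loci, so these shares may not hold for the members. Effects of either size could be missed. With limma voom on the inferred reads, 0 loci were called, 344 had an unadjusted p under 0.05, and none of these was a member.

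That 1 member was LOC_Os02g12050, a short locus with few reads, named because it was the only one. It passed the expression filter through its D6 values, which the rule had selected, and not on the D4 libraries alone. Its FPKM was 0.810 and 1.62 in the D4 controls, 0.162 and 0.486 in the D4 carbon dot libraries, 7.45 and 5.67 in the D6 controls and 7.29 and 8.26 in the D6 carbon dot libraries. Both D4 carbon dot libraries lay below both controls, but on 1 and 3 reads against 5 and 10. The log2 difference was -0.73 ± 0.23 (SE), with an unadjusted limma p of 0.0171 and an adjusted p of 1.

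Among all members the median D4 difference, carbon dots minus control, was -0.12 on the log2 scale, against -0.012 over all tested loci, and 18 of 53 were above 0. Both carbon dot libraries lay above both controls in 2 members and below both in 4, against 8.70% and 10.7% of all tested loci. HKT1 differed by -0.27 ± 0.31 (SE) and r9-LOX1 by -0.23 ± 0.29 (SE), each with a limma adjusted p of 1. The median moved with single libraries. It was 0.25 without D4 control replicate 2, 0.031 without D4 carbon dot replicate 1, -0.36 without D4 control replicate 1 and -0.21 without D4 carbon dot replicate 2.

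The D4 replicates of a group differed more among the members than among all tested loci. The median SD between replicates on the log2 scale was 0.43 in the D4 controls and 0.29 with carbon dots, against 0.139 and 0.148 over all tested loci. At D6 it was 0.30 in the controls and 0.11 with carbon dots, against 0.088 and 0.087. Under 10 reads in at least 1 D4 library were found in 7 members, and 1 of them had 0 reads in a D4 library. The part of counting error in the spread was not tested.

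The D4 difference between replicates went mostly one way. Replicate 2 stood above replicate 1 in 45 of 53 members in the D4 controls, against 45.3% of all tested loci, and in 35 of 53 in the D4 carbon dot libraries, against 48.0%. It did so in both D4 groups in 32 members, against 32.1% of all tested loci. Both D4 replicate 2 libraries stood above both D4 replicate 1 libraries in 30 members and below both in 4, where 27.1% and 32.9% of all tested loci did so. They were at least 2 times both replicate 1 libraries in 8 members, against 1.72% of all tested loci. D4 control replicate 2 held the highest of the 4 D4 values in 31 members, so this library most often set the value that the ratio was measured against. The share of all tested loci in which it was highest was not taken, and the highest D4 value is itself a term of the rule. At D6 replicate 2 stood above replicate 1 in 9 of 53 members in the controls, against 54.2% of all tested loci, and in 34 of 53 with carbon dots, against 46.6%. The D6 controls were thus the one group in which replicate 1 was the higher library in most members.

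**Figure D4:**
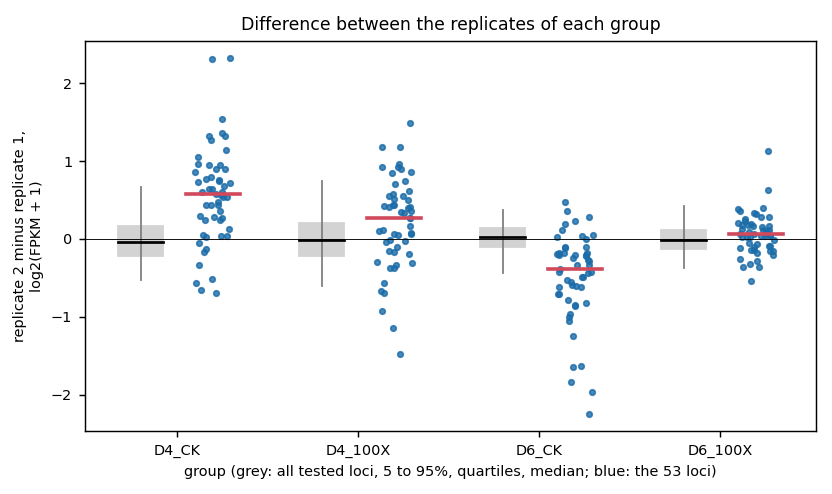
Difference between replicate 2 and replicate 1 in each group on the log2(FPKM + 1) scale, with the 53 loci as blue points with a red median, and all tested loci as a grey box from the lower to the upper quartile with a line from the 5th to the 95th percentile. Most members lie above 0 in the D4 groups, with medians of 0.58 in controls and 0.27 with carbon dots, and below 0 in the D6 controls.

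A pair of neighbouring members shows both replicate patterns. LOC_Os10g39260 had 1.04 and 3.93 FPKM in the D4 controls, 1.39 and 3.30 in the D4 carbon dot libraries, 81.4 and 25.3 in the D6 controls and 63.1 and 72.9 in the D6 carbon dot libraries. LOC_Os10g39300, 3 rows further in the table, had 0.775 and 2.29 FPKM in the D4 controls, 0.865 and 2.12 in the D4 carbon dot libraries, 57.8 and 14.1 in the D6 controls and 41.7 and 36.0 in the D6 carbon dot libraries. In both loci replicate 2 was the higher library of each D4 group, and D6 control replicate 2 was the lowest of the D6 libraries by a wide margin. Both were picked after their values had been seen. Whether the neighbours share reads was not tested, and their sequences were not used here.

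Members often lay near each other in the genome order of the identifiers. In all, 14 of 53 members (26.4%) were within 10 table rows of another member, in 7 pairs, while 265 of 13659 other loci with at least 5 FPKM in every D6 library (1.94%) were within 10 rows of a member. Adjacent pairs were LOC_Os01g68730 with LOC_Os01g68740, LOC_Os04g56920 with LOC_Os04g56930, and LOC_Os12g27020 with LOC_Os12g27025. Neighbours could differ widely in level. LOC_Os04g56930 had D6 means of 74.6 and 73.8 FPKM in controls and with carbon dots, and LOC_Os04g56920 had 6.34 and 6.68 FPKM. The LOC_Os12g27020 pair consists of short loci of 294 and 282 bases, with no more than 17 reads in any D4 library. The members were spread over all 12 chromosomes, with 8 on chromosome 1, 7 on chromosome 4, 6 each on chromosomes 10 and 12, and 1 on chromosome 7. Their median length was 1338 bases, against 1700 over all tested loci.

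Of the 87 listed loci that passed the expression filter, 46 had a lowest D6 value above the highest D4 value, against 16.6% of all tested loci, and 2 met the level and ratio terms, against 0.399%. The lists were drawn up with earlier results of these data known, which can raise such shares. They cover few loci and are given as a description, not as an enrichment. One of the 2 was HKT1. The other was a listed nitrate locus without a matched name, whose D6 means of 9.72 and 25.1 FPKM in controls and with carbon dots differed too much for the rule. All 11 tested loci of the defence list had every D6 library above every D4 library, and none was a member. A matched symbol was found for 5 loci of that list, and the others are on it by a recalled identifier alone. All 6 tested cellulose synthesis loci went the other way, with every D6 library below every D4 library, which held for 20.7% of all tested loci. Of the 5 tested loci for potassium and sodium transport, 4 had every D6 library above every D4 library. Other lists were mixed. For iron, zinc and manganese 10 of 18 lay above and 3 below, and for silicon and water channels 2 of 6 lay above and 2 below. Loci above were 7 of 11 for phytoalexins, 5 of 8 for phosphate and 4 of 11 for nitrate and ammonium. They were 2 of 7 for dehydration and 1 of 4 for fermentation, and in these 5 lists 0 lay below.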

How the data were processed

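Poly(A) RNA of rice roots was sequenced in 8 libraries. The authors deposited FPKM values for 55801 loci. The tools listed in the submitters' processing notes are featureCounts 1.6.4, fastp, SAMtools and HISAT2. Their roles, settings and genome build are not given in the sources read for this work. All 53 members and the gene lists were chosen with earlier results of these data known.

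Low FPKM values are whole multiples of the worth of 1 read. For 1061 of 1115 loci under 0.5 FPKM (95.2%) a common step was found within 0.002 steps, and whole reads, within 0.005 reads, were recovered for 34269 of 34269 loci above 0 (100%). The denominator was 22.87 M in all libraries, with a spread of 0.0098%. FPKM are not counts, so the main test was limma 3.58.1 in R 4.3.3 on log2(FPKM + 1), over 22794 loci with at least 1 FPKM in at least 2 libraries, in 1 fit of the 4 group means, with Benjamini-Hochberg adjustment and a threshold of 0.05. The carbon dot effect at D4 was the single contrast tested. The script was tested on simulated data, where 3 of 132 calls were false. Alternatives were other pseudocounts, filters, centring, voom on the recovered reads, a replicate block, other thresholds of the rule and leaving out each library.

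Names came from recalled identifiers, matched by symbol within 0.1 chromosome lengths in the RefSeq table of assembly ASM3414082v1 (39387 genes). Named members were those with such a match, the member with the largest ratio, the member with the highest D6 mean and any past the threshold at D4. Others were named after their values were seen, as stated there. No sequences are shown, since sequence tables were not used here.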

Additional observations from a re-analysis of the deposited data

How the results depend on the processing

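The count of 53 depends on the terms of the rule. It was 167 with a ratio of 2 times, 23 with 4 times, 81 with a lowest D6 value of 1 FPKM, 33 with 10 FPKM, 33 with a tighter limit on the D6 means and 91 with no limit on the D6 means. Leaving out single libraries gave 41 to 111 loci. There were 80 without D4 control replicate 2, 111 without D6 control replicate 2, of which 49 were among the 53, and 41 without D6 control replicate 1, of which 35 were. The median rise on the log2 scale was 2.66 in controls and 3.17 with carbon dots at a pseudocount of 0.1, and 2.13 to 2.74 and 2.59 to 2.76 when single libraries were left out. The median replicate difference in the D4 controls was 0.86 at a pseudocount of 0.1. The median D6 difference, carbon dots minus control, was 0.22 and ranged from -0.056, without D6 control replicate 2, to 0.39 without D6 control replicate 1. Without D6 control replicate 2, 166 loci rather than 91 met the level and ratio terms. Of this larger set, 47 loci over the D6 limit were higher with carbon dots and 8 lower. The 38 loci over the limit with all libraries were all higher with carbon dots against D6 control replicate 1 alone.

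For the carbon dot effect at D4, 2 loci were called, both lower and neither a member, with no expression filter, and 0 under every other setting run. With single libraries left out, HKT1 ranged from -0.67 to 0.12, above 0 only without D4 control replicate 2, and r9-LOX1 from -0.57 to 0.12, above 0 only without D4 carbon dot replicate 2. The cause of these changes was not tested. Replicate numbers are not said to pair libraries. With the replicate number as a block, 0 loci and 0 members were called, 487 loci and 1 member had an unadjusted p under 0.05, and with a block within D4 only 1112 and 3 did. With 2 libraries per group and few reads at D4, 2-fold and larger effects there may be missed.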
